A study of Rattus norvegicus with 58 samples.

Results

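The subunits of oxidative phosphorylation were followed in liver and kidney of rats given 4-methylcyclohexanemethanol (MCHM), an alicyclic alcohol used in coal washing. They were taken from the array by symbol: every probe set with a single gene symbol starting Ndufa, Ndufb, Ndufc, Ndufs, Ndufv, Sdh followed by a to d, Uqcr, Cox4 to Cox8 or Atp5, and Slc25a4. Cox8b, a complex IV isoform that is read here as a brown fat marker, was kept out of the set. The rule gave 101 of 31099 probe sets, standing for 90 of 14217 named genes. By complex these were 34 genes of complex I, 4 of complex II, 7 of complex III, 18 of complex IV (Ndufa4 and its relative Ndufa4l2 included), 16 of complex V, the carrier Slc25a4, and 10 assembly factors that the prefixes take in (Ndufaf and Sdhaf symbols). By their prefix, complex IV here also counts Cox7a2l and Cox6c-ps1, whose symbol marks a pseudogene. Another 9 probe sets carried several symbols and were left out, so that cytochrome c (Cycs), Atp5mc1, Cox7a2 and Uqcrb have no value here. All 90 gene identifiers were found in the RefSeq gene table of assembly GRCr8, on 20 chromosomes. Of the 90, 85 passed the filter on low values in each organ.

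The rats were male Harlan Sprague-Dawley animals dosed by gavage for 5 days, and no genetic change is named in the labels. Control rats received 0 mg/kg and the others 0.1, 1, 10, 100, 300 or 500 mg/kg. With 5 control arrays and 4 at every one of 6 doses, liver and kidney had 29 arrays apiece, 58 together. Values were deposited on the log2 scale from an Affymetrix rat genome array, where a difference of 1 is a 2-fold change.

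Oxidative phosphorylation is the last stage of aerobic energy metabolism. Complexes I and II take electrons from NADH and succinate, complex III passes them to cytochrome c, and complex IV hands them to oxygen, while the proton gradient built along the way drives the ATP synthase, complex V. Slc25a4 (ANT1) is an adenine nucleotide translocase, which exchanges the new ATP for ADP across the inner membrane. Kidney tubule cells are rich in mitochondria because they reabsorb solutes by active transport, and the measured subunits are the ones encoded in the nucleus.

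The array medians lay between 5.26 and 5.38. Tissue markers went with the labels: albumin (Alb) lay between 14.65 and 14.71 in liver, and the proximal tubule phosphate carrier Slc34a1 between 12.80 and 13.72 in kidney against 4.61 to 5.49 in liver. In kidney, replicate 3 at 300 mg/kg and replicate 3 at 500 mg/kg stood apart. Their mean over 5 brown fat markers was 8.92 and 8.06, which is 4.99 and 4.13 above the median kidney array, and their uncoupling protein Ucp1 reached 13.80 and 12.40 against 4.37 to 4.79 in controls. Cidea and Cox8b were high as well, but Elovl3 was at most 2.59 on any kidney array. Dio2 reached 3.74 at 300 mg/kg and at most 2.87 at 500 mg/kg, against 2.76 to 3.04 in controls. Of the general adipose genes, Fabp4 reached 13.34, Cfd 11.11 and Adipoq 10.03 at 300 mg/kg, while Lep was at most 4.26 on any kidney array. Among the controls, kidney replicate 2 had a mean of 6.92 over 6 hepatocyte transcripts, where the other control kidneys lay between 3.79 and 4.46. The arrays called brown fat arrays below are replicate 3 at 300 mg/kg and replicate 3 at 500 mg/kg. Kidney replicate 4 at 0.1 mg/kg had a brown fat mean of 4.88, 0.96 above the median. This was under the cutoff of 1, and it was kept throughout. The median over the members in kidney at 300 and 500 mg/kg is given with and without the brown fat arrays. So are the values of members named there. In whole tissue, fewer cells of a type and less RNA per cell cannot be told apart.

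In rats given no MCHM, kidney carried more subunit mRNA than liver. Of 85 members, 75 were called higher in kidney (limma, Benjamini-Hochberg adjusted p under 0.05 over 10665 genes tested) and 2 lower, with a median log2 difference of 0.60. Among all genes tested, 76.1% were called (41.3% higher and 34.8% lower), and the median was 0.04. The members called higher were thus 88.2% of the set. Large differences were about as frequent as elsewhere: 14 of 85 members (16.5%) were called and at least 2-fold higher, beside 14% of all genes. Over all doses, 64 of 85 members had all 29 kidney arrays above all 29 liver arrays, and 0 had them all below. The same held for 24.2% of all genes tested in the higher direction and for 15.6% in the lower. No source used here says whether liver and kidney arrays were normalized as a single set. Cyclic loess over both organs brought the median to 0.42 while quantile normalization gave 0.65.

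By complex, the organ difference had its highest median in complex II, succinate dehydrogenase, at 1.11 with 4 of 4 genes called higher, and complex III had 0.85 with 6 of 7. For complex V the median was 0.80 with 16 of 16 called higher, for complex I it was 0.55 with 30 of 34, and for complex IV 0.44 with 10 of 13. The assembly factors had 0.31, with 8 of 10 called higher. Differences between these medians were not tested.

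**Figure D1:**
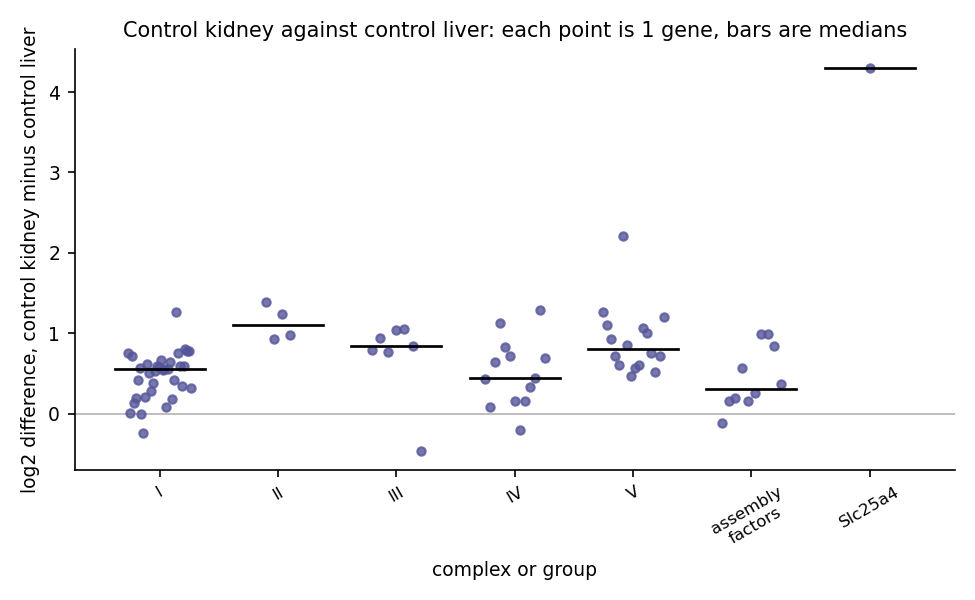
Log2 difference of control kidney minus control liver (5 arrays each) for each of the 85 genes, grouped by complex, with a bar at the median of each group. Nearly all points lie above 0, the medians run from 0.31 for the assembly factors to 1.11 for complex II, and Slc25a4 stands at 4.29.

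Slc25a4 differed most between the organs. Its control arrays read 7.54, 7.69, 7.78, 7.61 and 7.86 in liver and 12.01, 11.87, 12.00, 12.04 and 12.04 in kidney. Every kidney array lay far above every liver array, a log2 difference of 4.29 (SE 0.05, adjusted p = 2.39e-50), or 19.6-fold. Atp5if1, the inhibitor that keeps ATP synthase from running in reverse, came next. It read 8.74, 8.84, 8.81, 8.90 and 8.59 in control liver and 11.05, 10.94, 10.85, 10.95 and 11.12 in control kidney, with no overlap. The difference was 2.21 (SE 0.07, adjusted p = 5.11e-34), but the gene's other probe sets read 0.35 and -0.65, so its size depends on the probe set.

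Other large differences came from catalytic and structural subunits. Sdha, the flavoprotein of complex II, read 10.59 to 10.92 in control liver and 12.00 to 12.14 in control kidney, a difference of 1.39 (SE 0.05, adjusted p = 1.33e-29). Cox8a, a small subunit of complex IV, read 12.18 to 12.30 against 13.48 to 13.55, a difference of 1.29 (SE 0.03, adjusted p = 7.19e-38). Neither range touched the other. Atp5f1a and Atp5f1b, the alpha and beta subunits of the catalytic head of ATP synthase, differed by 1.26 (SE 0.03) and 1.10 (SE 0.03). Ndufs1, which carries iron-sulfur clusters of complex I, differed by 1.26 (SE 0.05), the largest difference within its complex, whose median was 0.55.

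The members called lower in kidney were Uqcrq, a small subunit of complex III, and Ndufa7 of complex I. Uqcrq read 12.63, 12.59, 12.63, 12.70 and 12.73 in control liver and 12.21, 12.11, 12.26, 12.19 and 12.21 in control kidney, a difference of -0.46 (SE 0.05, adjusted p = 3.2e-12). All control kidneys were below all control livers for this gene, while its complex had 6 of 7 genes called higher. Ndufa7 differed by -0.24 (SE 0.07, adjusted p = 0.00124), but its other probe set gave 0.88 and the mean of both gave 0.32, which turns the direction.

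Tissue-specific isoforms mostly failed the filter on low values. Cox4i2 read 3.80 ± 0.21 (SD, n = 5) in control liver and 3.52 ± 0.14 (SD, n = 5) in control kidney, and Cox6a2, the heart and skeletal muscle form, 4.12 ± 0.13 and 4.07 ± 0.16. Cox6b2, Cox7b2 and Ndufa4l2 lay between 2.77 and 4.24 on average, and these 5 genes did not pass the filter in either organ. Cox7a1, another muscle form that brown fat also uses, passed it narrowly at 5.07 ± 0.11 in liver and 4.86 ± 0.13 in kidney. The widely expressed forms passed and were higher in kidney, with Cox4i1 at 12.25 ± 0.04 and 12.68 ± 0.06, Cox6a1 at 11.59 ± 0.06 and 12.71 ± 0.03, and Cox6b1 at 11.64 ± 0.03 and 12.46 ± 0.09 in liver and kidney (each SD, n = 5; adjusted p of 3.53e-10, 3.09e-28 and 3.31e-22). Ndufa4, a subunit of complex IV despite its name, was higher in kidney by 0.69 (SE 0.04, adjusted p = 1.74e-23). Atp5mc3, which encodes the c subunit of the rotor ring of ATP synthase, was higher by 0.85 (SE 0.03, adjusted p = 8.87e-32).

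Genes of related mitochondrial pathways were read from lists. The citrate cycle list had 14 of 14 measured genes called higher in control kidney, with a median of 0.97, and isocitrate dehydrogenase Idh2 differed by 2.39. Of 73 mitochondrial ribosome genes 24 were called higher and 26 lower, with a median of -0.02. Among 13 regulators, 6 were called higher and 4 lower: the coactivator Ppargc1a was higher by 3.74 (adjusted p = 8.25e-28), the receptor Esrra by 0.80 (adjusted p = 8.83e-12) and the respiratory factor Nrf1 by 0.35 (adjusted p = 0.0108), while the mitochondrial DNA packaging factor Tfam was at -0.28 (adjusted p = 9.32e-05).

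Promoters of the members were read because many subunits were high together in kidney. RefSeq promoters of assembly GRCr8 were matched for 82 of 90 members, 1 start a gene, and the 250 bases before each start were searched on both strands for 4 short motifs. GCANGCG, the core of the NRF1 site, was found in 36.6% of member promoters, in 24.5% of promoters of genes tested in either organ and in 14.2% of all promoters of this length. CCGGAAG, an ETS core bound by GABP, was found in 30.5%, 14.5% and 7.74%, ATGGCGG, a YY1 core, in 9.76%, 3.96% and 2.54%, and AAGGTCA, an ERR element, in 7.32%, 2.67% and 3.77%. At least 1 of the 4 was present in 61.0% of member promoters and in 38.8% of those of tested genes. The median GC content was 55.6% in members and 60% in tested genes, and a match describes letters, not binding. Promoters of a selection of the named members are given below. Not all of these were called with dose, and some called members, such as Atp5f1b and Uqcrh, are not shown. The promoters are those of Slc25a4 (chr16:52805271-52805520, plus strand), Cox8a (chr1:213833624-213833873, minus strand), Atp5po (chr11:44657484-44657733, minus strand), Ndufb10 (chr10:14255967-14256216, minus strand) and Ndufs7 (chr7:10110499-10110748, minus strand). They are written from 5′ to 3′ along the gene's strand and end at the base before the start, with matches in capitals: an ETS core in Slc25a4, 2 in Cox8a (read as CTTCCGG, the same core on the other strand), overlapping NRF1 cores on both strands in Atp5po, an NRF1 core in Ndufb10 and no match in Ndufs7. The start that the table gives for Ndufs7 lies inside the gene as the RefSeq gene table spans it (chr7, 10103226 to 10110862), so the bases before the outer end of that span were not searched.
Slc25a4: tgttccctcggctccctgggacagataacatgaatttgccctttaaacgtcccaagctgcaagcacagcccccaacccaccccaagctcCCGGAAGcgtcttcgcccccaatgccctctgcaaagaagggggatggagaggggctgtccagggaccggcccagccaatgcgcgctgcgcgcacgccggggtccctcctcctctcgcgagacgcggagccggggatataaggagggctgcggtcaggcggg
Cox8a: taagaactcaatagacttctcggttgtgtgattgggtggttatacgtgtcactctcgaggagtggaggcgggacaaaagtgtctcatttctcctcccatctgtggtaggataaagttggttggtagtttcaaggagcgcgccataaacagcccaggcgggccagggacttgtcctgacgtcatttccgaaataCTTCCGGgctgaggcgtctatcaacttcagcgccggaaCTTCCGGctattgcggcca
Atp5po: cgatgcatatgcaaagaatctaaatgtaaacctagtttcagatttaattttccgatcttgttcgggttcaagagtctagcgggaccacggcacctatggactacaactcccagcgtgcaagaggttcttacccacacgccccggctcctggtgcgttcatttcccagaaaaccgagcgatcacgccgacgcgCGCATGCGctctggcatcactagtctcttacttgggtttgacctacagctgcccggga
Ndufb10: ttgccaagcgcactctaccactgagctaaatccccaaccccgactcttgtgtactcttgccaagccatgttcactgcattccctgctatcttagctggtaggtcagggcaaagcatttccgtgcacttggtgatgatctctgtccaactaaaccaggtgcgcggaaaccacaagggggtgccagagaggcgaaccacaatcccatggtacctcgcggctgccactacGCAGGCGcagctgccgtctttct
Ndufs7: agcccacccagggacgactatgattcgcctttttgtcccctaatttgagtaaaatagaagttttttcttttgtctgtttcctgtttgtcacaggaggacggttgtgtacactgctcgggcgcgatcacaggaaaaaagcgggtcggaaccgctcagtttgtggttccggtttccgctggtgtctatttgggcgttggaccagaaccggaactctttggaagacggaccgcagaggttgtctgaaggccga

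With MCHM, 0 of 85 members were called in liver at 0.1, 1, 10, 100 or 300 mg/kg, in limma's test over 11264 genes. At 0.1 to 100 mg/kg 0% of all genes tested were called, and at 300 mg/kg 0.0266% were. At an unadjusted p under 0.05 the members numbered 5, 4, 6, 0 and 2 in order of dose, beside 4.1%, 5.83%, 6.4%, 3.68% and 7.87% of all genes. Their median log2 difference from control was -0.05, -0.03, -0.03, 0.00 and 0.02 at these doses. At 0.1 mg/kg 10 of 85 members had a value above 0 (11.8%, against 46.1% of all genes), and 32 of 85 had all 4 dosed arrays below the control mean, beside 9.57% of all genes. Comparisons of doses within an organ share the same 5 control arrays.

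At 500 mg/kg the liver values lay on the other side of control. Of 85 members, 79 were above 0 (92.9%, against 51.8% of all genes), with a median of 0.08 against 0.01 over all genes. Only 2 were called, both higher, which is 2.35% of the members beside 0.959% of all genes called (0.488% higher and 0.471% lower). An unadjusted p under 0.05 was reached by 25 members (29.4%) beside 13.9% of all genes. In 13 members the 4 dosed arrays lay above all control arrays, which 2.7% of all genes did, and in 0 they lay below, as 2.89% of all genes did. The differences were small: the quartiles of the members were 0.04 and 0.12, and 84 of 85 had a 95% confidence interval within 0.5 of 0 on the log2 scale.

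Ndufs7, a core subunit of complex I that carries the last iron-sulfur cluster before ubiquinone, was called. Its control livers read 10.74, 10.78, 10.53, 10.68 and 10.70 and the 500 mg/kg livers 10.84, 11.04, 10.97 and 10.85. All dosed arrays were above all control arrays, a rise of 0.24 (SE 0.06, adjusted p = 0.0358), or 1.18-fold. Atp5f1b, the catalytic beta subunit of ATP synthase, read 12.82, 12.87, 12.79, 12.80 and 12.81 in controls and 12.96, 12.93, 12.93 and 12.91 at 500 mg/kg. Here too the groups did not overlap, and the rise was 0.11 (SE 0.03, adjusted p = 0.0435), or 1.08-fold. Neither call was firm. Ndufs7 kept its call without each of 4 of the 9 arrays (control replicates 1 and 2, dosed replicates 1 and 4) and lost it without each of the other 5 (adjusted p from 0.068 to 0.11). Atp5f1b kept its call only without control replicate 2, and lost it without each of the other 8 (adjusted p from 0.0606 to 0.12). Among 11 other ways of processing, the Ndufs7 call held in 8 and the Atp5f1b call in 4. A replicate block over the numbers in the titles, which were not shown to pair the arrays, was 1 of those that ended both calls (adjusted p = 0.0927 for Ndufs7 and 0.13 for Atp5f1b).

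Other subunits of the electron transport chain lay close to these. In complex I the next smallest p belonged to Ndufv2, which read 11.02, 11.21, 11.03, 11.12 and 10.89 in controls and 11.23, 11.15, 11.34 and 11.30 at 500 mg/kg. The groups overlapped slightly, and the difference was 0.20 (SE 0.06, adjusted p = 0.071). It passed the test without control replicate 2 (adjusted p = 0.0361) or without dosed replicate 2 (adjusted p = 0.0472). Complex I as a whole had 33 of 34 genes above 0 with a median of 0.10, and 10 with an unadjusted p under 0.05. In complex II Sdhb, the iron-sulfur subunit, differed by 0.13 (adjusted p = 0.126) and Sdhd, a membrane anchor, by 0.08 (adjusted p = 0.435), while Sdha differed by 0.01. In complex III the Rieske protein Uqcrfs1 and the hinge protein Uqcrh each differed by 0.14 (adjusted p = 0.0955 and 0.103), and Uqcrq by 0.00. Uqcrfs1 passed the test without replicate 4 at 500 mg/kg (adjusted p = 0.0459).

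Complex IV had the lowest median among the complexes, 0.04, with 10 of 13 genes above 0. Those below 0 were Cox7a1, Cox7a2l and the pseudogene Cox6c-ps1, so this median depends on which genes are counted in the complex. Cox6a1 differed by 0.16 (SE 0.05, adjusted p = 0.0934) and Cox6c by 0.07 (adjusted p = 0.437), and the dim Cox7a1 by -0.20 (SE 0.14, adjusted p = 0.572). In complex V 16 of 16 genes were above 0, with a median of 0.09. Atp5f1c, the rotating gamma subunit, read 12.39, 12.39, 12.35, 12.35 and 12.37 in controls and 12.47, 12.64, 12.51 and 12.48 at 500 mg/kg. Its groups did not overlap, with a difference of 0.15 (SE 0.04, adjusted p = 0.0703). Among the assembly factors Ndufaf3 and Ndufaf5 differed by 0.19 (adjusted p = 0.213) and 0.16 (adjusted p = 0.334), with 9 of 10 above 0. The difference between complexes was not tested.

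**Figure D2:**
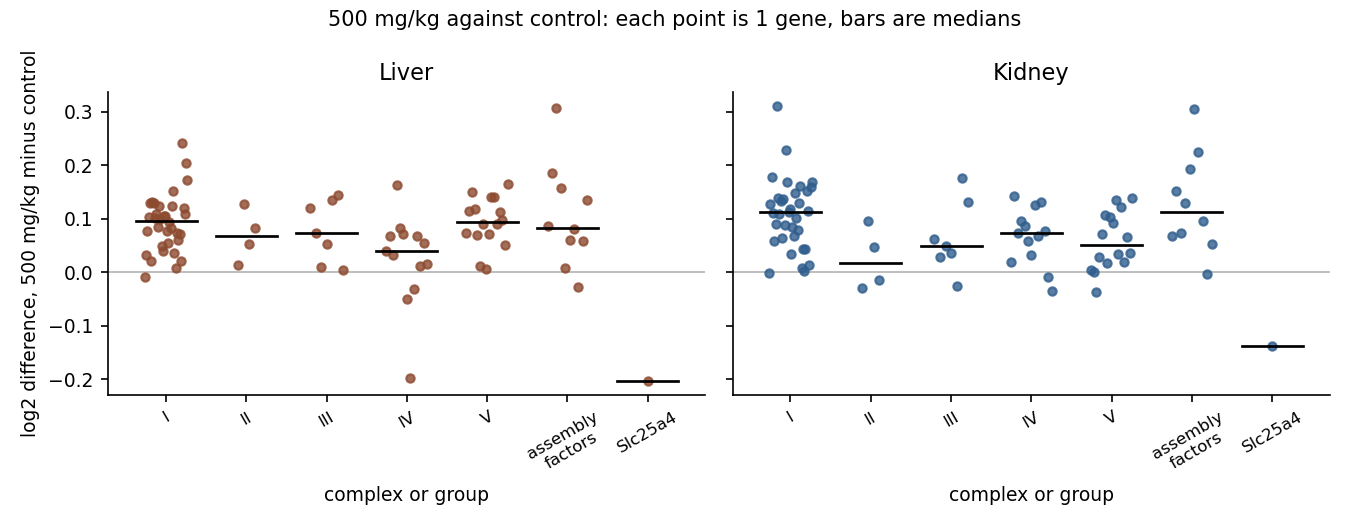
Log2 difference of 500 mg/kg minus control for each of the 85 genes in liver and in kidney, grouped by complex, with a bar at the median of each group. Most points lie between 0 and 0.2 in both organs, and Slc25a4 lies at -0.20 in liver and -0.14 in kidney.

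The dose trend, a slope over the 7 dose ranks, called 5 members in liver, 4 higher and 1 lower (5.88% of members, beside 1.85% of all genes called, 0.675% higher and 1.17% lower). The number of members called went from 1 to 25 under other settings and from 0 to 8 with 1 array left out. Slopes were above 0 in 78 of 85 members (51.2% of all genes), and 32 had an unadjusted p under 0.05, beside 16.6% of all genes. The 4 that rose belong to complexes I, III, IV and V. Ndufs7 rose by 0.036 per dose step (SE 0.008, adjusted p = 0.0183), from a mean of 10.68 in controls to 10.92 at 500 mg/kg. Atp5po, which ties the head of ATP synthase to its stalk, rose by 0.029 per step (SE 0.007, adjusted p = 0.028). Its controls read 11.53, 11.64, 11.50, 11.52 and 11.53 and its 500 mg/kg arrays 11.67, 11.80, 11.69 and 11.67, without overlap. Cox6a1 rose by 0.027 per step (SE 0.006, adjusted p = 0.0229), and Uqcrh by 0.024 per step (SE 0.007, adjusted p = 0.0479).

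How far these slopes rest on single arrays differed by gene. Ndufs7 kept its call without each of 28 of 29 arrays and lost it without replicate 3 at 500 mg/kg (adjusted p = 0.058). Cox6a1 kept it without 26, and lost it without replicate 1, 2 or 3 at 500 mg/kg (adjusted p from 0.0527 to 0.0584). Atp5po kept it without 25, and lost it without any of the 500 mg/kg arrays (adjusted p from 0.0611 to 0.071). Uqcrh kept it without only 9 of 29, namely control replicates 1, 2 and 4, replicate 1 at 1 mg/kg, replicates 1, 3 and 4 at 10 mg/kg, replicate 3 at 100 mg/kg and replicate 4 at 300 mg/kg (adjusted p from 0.0507 to 0.121 without the others).

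**Figure D3:**
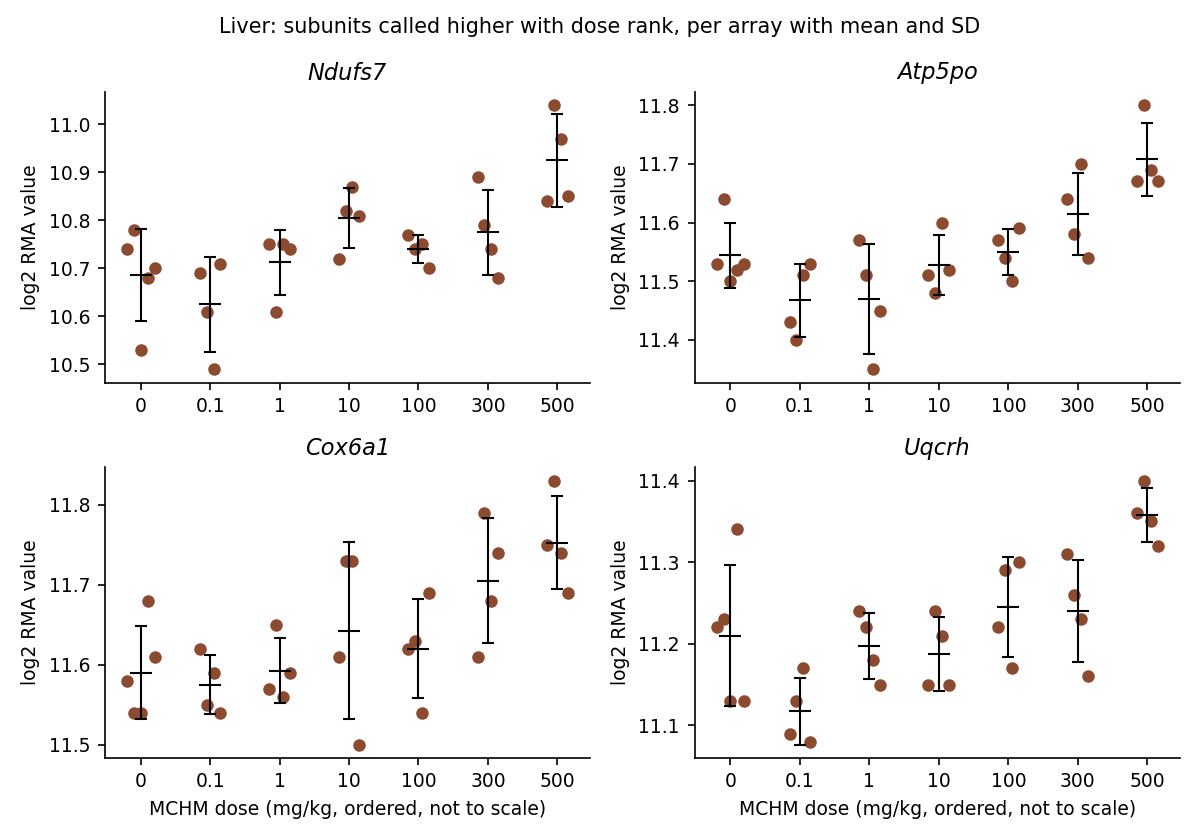
Liver log2 values of Ndufs7, Atp5po, Cox6a1 and Uqcrh on each array by dose, with the mean and SD of each group (5 controls, 4 at each dose; doses are spaced by rank). For Ndufs7, Atp5po and Cox6a1 the 500 mg/kg arrays lie above all control arrays, whereas for Uqcrh 1 control array reaches 11.34, above the lowest 500 mg/kg array at 11.32.

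The mean of the 74 measured subunits, without carriers and assembly factors but with Cox7a2l and Cox6c-ps1, gives the same picture per array. Set against the control mean, the control livers lay between -0.03 and 0.03, and the 500 mg/kg livers at 0.03, 0.14, 0.11 and 0.03. Replicates 2 and 3 were above the controls and the other 2 dosed arrays at the top of the control range, with a pooled SD of 0.04 between replicates. The mean over all genes stayed between -0.02 and 0.02 on the same arrays.

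Markers of other cells were read on the same liver arrays. Of 7 macrophage and lymphocyte markers 1 was called lower at 500 mg/kg, with a median of -0.28, and their mean level ran from 6.80 to 7.15 against 7.01 to 7.22 in controls. Of 6 hepatocyte markers 1 was called lower, with a median of -0.07 and a mean level of 13.85 to 13.89 against 13.90 to 13.96. The difference between 3' and 5' actin probe sets, a sign of RNA quality, ran from 1.86 to 2.20 at 500 mg/kg and from 1.76 to 2.10 in controls. For Gapdh it was 0.29, 0.58, 0.27 and 0.39 at 500 mg/kg and ran from 0.20 to 0.48 in controls. Replicate 2 at 500 mg/kg, the array with the highest subunit mean, also had the highest value of both among these 9 liver arrays. Without it the median of the 85 members was 0.056 in place of 0.081, Ndufs7 and Atp5f1b lost their calls (adjusted p = 0.0925 and 0.0679) and Ndufv2 was called. At 0.1, 1, 10 and 100 mg/kg, the actin difference averaged 1.91, 1.90, 1.88 and 1.91. It was 1.99 in controls, 1.97 at 300 mg/kg and 2.00 at 500 mg/kg. For Gapdh the averages were 0.36, 0.32, 0.32 and 0.33 at the 4 lower doses and 0.38 in controls, at 300 and at 500 mg/kg. The part of these measures in the subunit values and in the trend was not tested at any dose.

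Related pathways in liver at 500 mg/kg were mixed. Of 14 citrate cycle genes 2 were called higher, Idh2 by 0.33 (SE 0.08, adjusted p = 0.0346) and Suclg1, a subunit of succinyl-CoA ligase, by 0.25 (SE 0.06, adjusted p = 0.0442), with a median of 0.10 over the list. Calls numbered 0 among 73 mitochondrial ribosome genes (median 0.04), 28 further assembly factors (median 0.06) and 13 regulators (median 0.09). Esrra differed by 0.24 (adjusted p = 0.237), Ppargc1a by -0.33 (adjusted p = 0.508) and Tfam by 0.13 (adjusted p = 0.48).

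In kidney 0 of 85 members were called at any dose, in limma's test over 11194 genes, where 0.0268% of all genes were called at 300 and at 500 mg/kg and 0% at lower doses. The medians of the members were 0.02, 0.01, 0.02 and 0.01 at 0.1, 1, 10 and 100 mg/kg, with 1, 2, 2 and 1 members at an unadjusted p under 0.05 beside 8.15%, 9.34%, 6.27% and 4.8% of all genes. At 500 mg/kg 76 of 85 were above 0 (89.4%, against 55.9% of all genes), the median was 0.08 against 0.02 over all genes, and 29 members (34.1%) had an unadjusted p under 0.05 beside 9.58% of all genes. In 14 members the dosed arrays lay above all controls, beside 2.05% of all genes, and in 0 below, beside 1.13%. All 85 confidence intervals lay within 0.5 of 0.

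The kidney arrays high in markers of brown fat, a tissue packed with mitochondria, were also high in the subunits. At 500 mg/kg, replicate 3 was the highest of its group in 61 of 85 members, and at 300 mg/kg replicate 3 was the highest in 71. Without these arrays the 500 mg/kg median was 0.06, 68 of 85 members were above 0 (56.8% of all genes), and 18 had an unadjusted p under 0.05 (21.2%, beside 7.12% of all genes). At 300 mg/kg the median went from 0.065 to 0.027, and members with an unadjusted p under 0.05 from 17 (20%, beside 5.74% of all genes) to 4 (4.71%, beside 3.45%). The calls stayed at 0 in each case, and the part of brown fat in the remaining difference was not tested.

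Per array, the mean of the 74 subunits lay between -0.04 and 0.03 in control kidneys. It was 0.07, 0.04, 0.16 and 0.06 at 500 mg/kg and 0.02, 0.04, 0.18 and 0.03 at 300 mg/kg. The highest value of either dose was the brown fat array. The other 500 mg/kg arrays were still above the controls, replicate 2 only at 0.04 against 0.03. The mean over all genes ran from -0.04 to 0.03 in control kidneys and was 0.01, 0.03, 0.01 and 0.01 at 500 mg/kg. Its part in the subunit means was not tested. At 1 mg/kg, replicate 1 read 0.11 with brown fat markers at 3.72, so that a value of this size also occurred at a low dose. The pooled SD between replicates was 0.05.

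**Figure D4:**
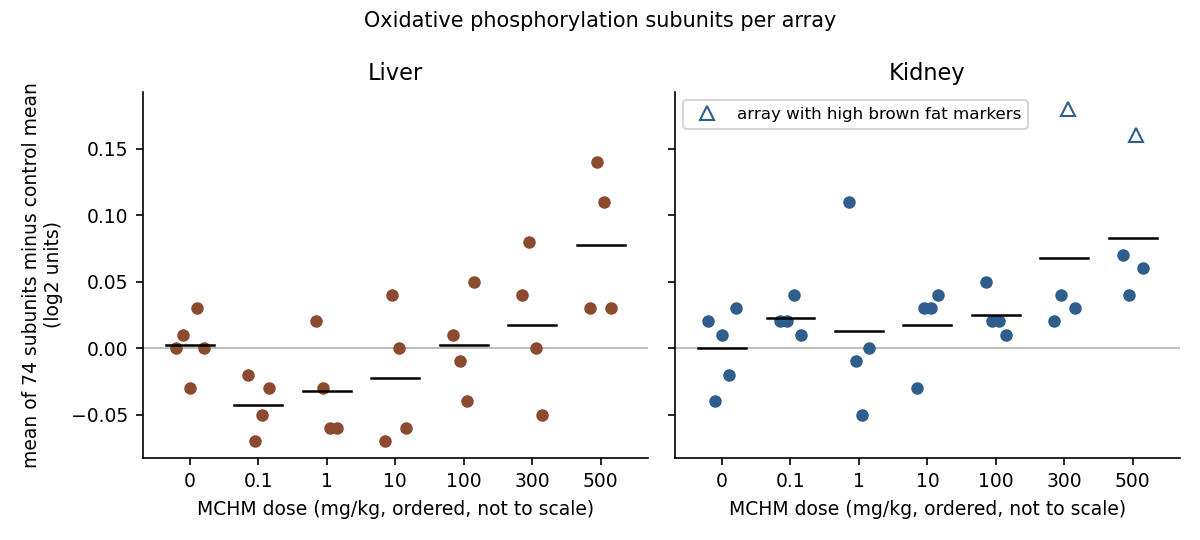
Mean over 74 subunits on each array, minus the control mean of the organ, in log2 units by dose, with a bar at the mean of each group; open triangles mark the kidney arrays with high brown fat markers. Liver arrays at 0.1 mg/kg lie below 0 and those at 500 mg/kg between 0.03 and 0.14, and the triangles are the highest kidney arrays at 0.18 and 0.16.

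Complex I had the highest median of the complexes in kidney at 500 mg/kg, 0.11, with 33 of 34 genes above 0. An unadjusted p under 0.05 was reached by 17 of them (50%), beside 9.58% of all genes. Without the brown fat arrays the median of complex I was 0.09, with 31 of 34 above 0. The count at an unadjusted p under 0.05 was then 11 (32.4%), beside 7.12% of all genes. Ndufb10, an accessory subunit of the membrane arm, read 11.27, 11.36, 11.39, 11.33 and 11.44 in controls and 11.58, 11.57, 11.65 and 11.53 at 500 mg/kg. The groups did not overlap, and the difference was 0.23 (SE 0.05, adjusted p = 0.0795), and 0.20 without the brown fat arrays (adjusted p = 0.343). Ndufa5, an accessory subunit, read 10.42, 10.29, 10.39, 10.22 and 10.44 in controls and 10.60, 10.56, 10.82 and 10.69 at 500 mg/kg. Again there was no overlap, with a difference of 0.31 (SE 0.09, adjusted p = 0.159), and of 0.26 without the brown fat arrays. Over 12 other settings of the test, leaving out these arrays among them, its adjusted p ran from 0.0497 to 0.499.

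The other complexes lay lower. Complex II had a median of 0.02 with 2 of 4 genes above 0, led by Sdhb at 0.10 (adjusted p = 0.551) and Sdhc at 0.05 (adjusted p = 0.767). Without the brown fat arrays its median was -0.002, with Sdhb at 0.05 and Sdhc at 0.02. In complex III (median 0.05) Uqcrh differed by 0.18 (SE 0.06, adjusted p = 0.328) and Uqcrq by 0.13 (adjusted p = 0.497), and without the brown fat arrays by 0.12 and 0.08. In complex IV (median 0.07) Cox7b differed by 0.13 (adjusted p = 0.403) and Cox6a1 by 0.10 (adjusted p = 0.552), and without the brown fat arrays by 0.08 and 0.07. In complex V (median 0.05) Atp5mg differed by 0.13 (adjusted p = 0.257) and Atp5mpl by 0.12 (adjusted p = 0.295), while the catalytic subunit Atp5f1b differed by 0.00. Without the brown fat arrays these were 0.10, 0.11 and -0.01. Without the brown fat arrays the medians of complexes III, IV and V were 0.015, 0.042 and 0.027.

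Assembly factors stood at 0.11, close to complex I, and 0.10 without the brown fat arrays. Ndufaf8, which helps to build complex I, read 8.32, 8.19, 8.44, 8.37 and 8.40 in control kidneys and 8.68, 8.72, 8.70 and 8.51 at 500 mg/kg. All dosed arrays were above all controls, a difference of 0.30 (SE 0.07, adjusted p = 0.0831), and of 0.29 without the brown fat array. Over 12 other settings of the test, leaving out that array among them, the adjusted p of Ndufaf8 ran from 0.0268 to 0.338. Ndufaf7, a methyltransferase acting on complex I, differed by 0.19 (adjusted p = 0.285), and by 0.16 without that array. The mitochondrial ribosome list had 0 of 73 genes called, 20 at an unadjusted p under 0.05 and a median of 0.105, and protein import had 0 of 23 called and a median of 0.107.

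The kidney dose trend called 1 member, lower (1.18%, beside 0.152% of all genes called, 0.116% higher and 0.0357% lower). That member was Slc25a4. With the brown fat arrays included, Ndufa5 had a larger slope upward, 0.049 per dose step (SE 0.011). Its adjusted p of 0.05 was just over the threshold. Slopes were above 0 in 78 of 85 members, against 50.3% of all genes, and 34 had an unadjusted p under 0.05 (40%, beside 9.76% of all genes), of which 23 belonged to complex I. Without the brown fat arrays 69 of 85 slopes were above 0 and 17 members had an unadjusted p under 0.05 (20%, beside 6.98% of all genes), 9 of them in complex I. The trend then called 0 members and 0 of all genes tested.

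Slc25a4 lay below control at the high doses in both organs, where most subunits lay above it. The sample titles do not say whether both organs came from the same rats. In liver Slc25a4 read 7.51 ± 0.11 (SD, n = 4) at 300 mg/kg and 7.49 ± 0.06 (SD, n = 4) at 500 mg/kg against 7.70 ± 0.13 (SD, n = 5) in controls. The 500 mg/kg arrays were 7.47, 7.42, 7.52 and 7.57, all below the control mean, though the lowest control, 7.54, lay among them. The difference was -0.20 (SE 0.07, adjusted p = 0.187) at 500 mg/kg and did not pass the test, while over the dose ranks Slc25a4 fell by 0.035 per step (SE 0.010, adjusted p = 0.0488).

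In kidney Slc25a4 read 11.78, 11.84, 11.88 and 11.86 at 300 mg/kg and 11.89, 11.87, 11.75 and 11.90 at 500 mg/kg, against 12.01, 11.87, 12.00, 12.04 and 12.04 in controls. Every array of both doses was below the control mean, and the overlap came from control replicate 2 at 11.87. This array also held hepatocyte transcripts, and its mean over all genes was -0.04 against the control mean. The part of either in its Slc25a4 value was not tested. The differences were -0.15 (SE 0.04, adjusted p = 0.499) and -0.14 (SE 0.04, adjusted p = 0.164), and over the dose ranks it fell by 0.025 per step (SE 0.006, adjusted p = 0.049). Without the brown fat arrays the differences were -0.16 (adjusted p = 0.539) and -0.10 (adjusted p = 0.56), and the slope was -0.022 (adjusted p = 0.271), which ends the call.

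Both trend calls for Slc25a4 lie at the threshold. In liver it kept its call without each of 7 of 29 arrays (control replicates 1 and 4, replicates 1 and 2 at 1 mg/kg, replicate 4 at 10 mg/kg, replicate 3 at 100 mg/kg and replicate 1 at 300 mg/kg), and lost it without each of the other 22 (adjusted p from 0.0505 to 0.109). In kidney it kept its call without each of 6 of 29 (control replicates 2 and 3, replicate 1 at 1 mg/kg, replicate 2 at 10 mg/kg and replicates 3 and 4 at 100 mg/kg), and lost it without each of the other 23 (adjusted p from 0.0504 to 0.174). The slope stayed negative without any single array in both organs, from -0.040 to -0.031 for liver and from -0.029 to -0.022 for kidney. Slc25a5, the sister translocase, differed by 0.09 in liver (adjusted p = 0.344) and by 0.01 in kidney (adjusted p = 0.929) at 500 mg/kg, and the uncoupling protein Ucp2 by -0.30 (adjusted p = 0.142) and -0.22 (adjusted p = 0.596).

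**Figure D5:**
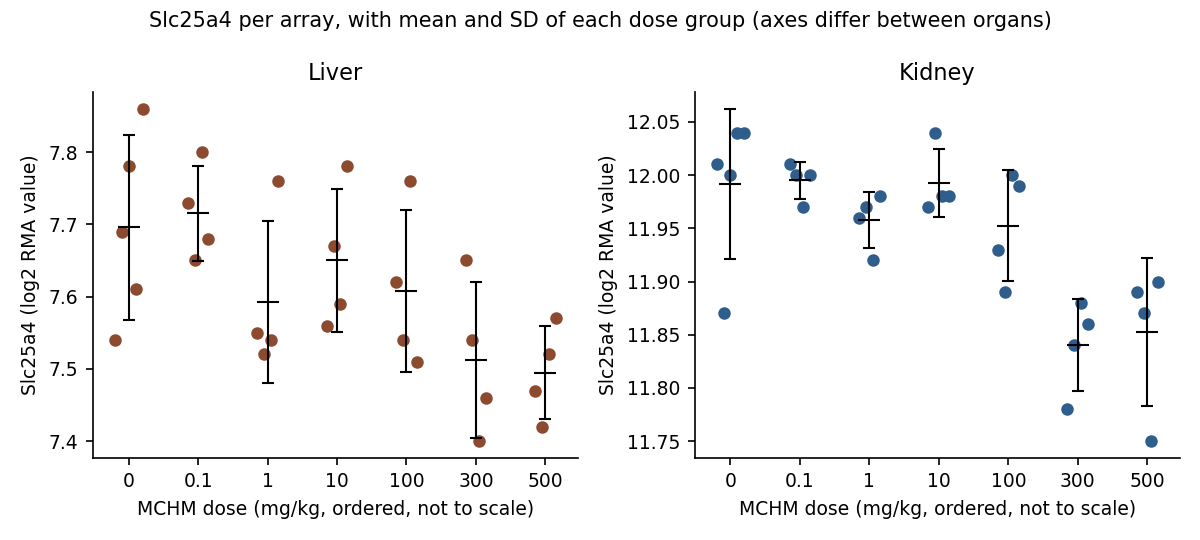
Slc25a4 log2 values on each array by dose in liver (left) and kidney (right), with the mean and SD of each group; the value axes differ between organs and do not start at 0. The 300 and 500 mg/kg groups are lowest in both organs, at 7.51 and 7.49 in liver and 11.84 and 11.85 in kidney.

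Whether the organs differed in response was tested directly as the liver effect minus the kidney effect over 10665 genes. At 300 mg/kg 0 members were called beside 0% of all genes, with 4 at an unadjusted p under 0.05 (5.49% of all genes). At 500 mg/kg 0 were called beside 0.122%, with 5 at an unadjusted p under 0.05 (8.55% of all genes). The smallest p at 500 mg/kg belonged to Atp5f1c, whose effect was higher in liver by 0.19 (SE 0.05, adjusted p = 0.125), followed by Uqcrfs1 at 0.16 (adjusted p = 0.259) and Atp5f1b at 0.11 (adjusted p = 0.275). The difference in Slc25a4 was -0.06 (95% confidence interval from -0.22 to 0.09, adjusted p = 0.894). The median over the members was -0.045 at 300 mg/kg and 0.007 at 500 mg/kg, and 83 of 85 intervals lay within 0.5 of 0 at 500 mg/kg. Without the kidney brown fat arrays these medians were -0.016 and 0.033, and the calls stayed at 0. Without them Atp5f1c differed by 0.19 (adjusted p = 0.244), Uqcrfs1 by 0.19 (adjusted p = 0.188), Atp5f1b by 0.12 (adjusted p = 0.261) and Slc25a4 by -0.10 (adjusted p = 0.871).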

How the data were processed

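Messenger RNA of 29 liver and 29 kidney samples was measured on 1 array each. Each array has a deposited column of log2 values, from RMA per the submitters' processing notes, with no version named there. These run from 1.75 to 14.85, with 0 missing, as log2 values do. There were 0 unmapped sample columns. Precision is limited by how many arrays a group holds.

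Groups and replicate numbers came from the sample titles, which call the arrays biological replicates and name no batch. Gene symbols came from the platform annotation. In an organ, values above the array's 40th percentile were required on 4 or more arrays, and the brightest probe set stood for its gene. For comparisons between organs it had to pass in both, and the brightest over 58 arrays was used. Each dose was compared with control by linear models (limma 3.58.1, R 4.3.3), 1 per organ, with moderated variances that follow intensity. The trend used dose ranks, and organ differences came from a fit with 14 groups. A call is a two-sided Benjamini-Hochberg adjusted p under 0.05 over all genes tested. Values are group means with SD, and differences carry the SE of the fit.

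The members, lists and the rule for named genes were chosen with earlier results of these data known. The rule took members called at a dose or in a trend, the 2 smallest p per complex at 500 mg/kg in each organ, the 6 largest organ differences each way, and the tissue isoforms. The marker and pathway lists were counted without a test of their own. Kidney arrays whose mean brown fat marker level exceeded the kidney median by over 1 were left out as an alternative. Other alternatives were the filter, the choice of probe set, the groups in the fit, the eBayes settings, array weights, normalization, a replicate block, a linear dose and each array left out. Each model was also tested on simulated data holding known changes.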

Additional observations from a re-analysis of the deposited data

Results flagged for a closer look

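In groups of 4 or 5 arrays, 98 sets of values were checked for an array far from the others, and 7 were found. This is not far above the rate of about 1 in 20 that chance gives. The sets share arrays, so they are not independent. Slc25a4 had 3 of the 7: liver replicate 4 at 1 mg/kg at 7.76, control kidney replicate 2 at 11.87, and kidney replicate 2 at 10 mg/kg at 12.04. Control liver replicate 2 was high in Atp5po at 11.64. Liver replicate 2 at 1 mg/kg was low in Ndufs7 at 10.61. Kidney replicate 1 at 1 mg/kg was high in Uqcrh at 12.22. Kidney replicate 3 at 300 mg/kg had a mean subunit difference from control of 0.18, and its mean brown fat marker level was 8.92.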

How the results depend on the processing

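The members' median stayed within 1.5 times its value, under each setting other than leaving out 1 array, in liver at 0.1, 1, 300 and 500 mg/kg and in its trend, in kidney at 10 and 500 mg/kg, and between untreated organs, where 0.60 was 0.650 with quantile normalization and 0.420 with cyclic loess. Without the brown fat arrays it went from 0.065 to 0.027 in kidney at 300 mg/kg, from 0.012 to 0.007 in the kidney trend, and for the liver minus kidney effect from -0.045 to -0.016 at 300 mg/kg and from 0.007 to 0.033 at 500 mg/kg. Cyclic loess moved these effects to -0.022 and 0.040. The other medians, each within 0.05 of 0, also moved by more than 1.5 times, and kidney at 1 mg/kg (0.009, but -0.002 with quantile normalization) and liver at 100 mg/kg (-0.002, but 0.005 with cyclic loess) changed sign. Counts of calls, which lie close to the threshold, did move. Liver at 500 mg/kg, with 2 calls, had 1 without the filter, with every probe set or with robust eBayes, 0 with only the groups compared or no intensity trend, 4 with array quality weights, 6 with cyclic loess and from 0 to 3 with 1 array left out. The liver trend, with 5, had 3 without the filter, with every probe set or with robust eBayes, 1 with no intensity trend, 25 with a linear dose and from 0 to 8 with 1 array left out. Kidney at 500 mg/kg, with 0, had 3 with array quality weights and 2 with quantile normalization. The kidney trend, with 1, had 0 without the filter, with every probe set, with no intensity trend or without the brown fat arrays. It had 2 with a 60th percentile filter, the mean over probe sets or robust eBayes, 3 with array quality weights, quantile normalization or cyclic loess, 7 with a linear dose and from 0 to 3 with 1 array left out. The organ difference at 500 mg/kg had 1 call with cyclic loess in place of 0. Ndufa7 in control kidney minus control liver reversed from -0.24 to 0.32 with the mean over its probe sets. The cause of these shifts was not tested. With the replicate number as a fixed term within each organ, the calls were 0 in liver at 500 mg/kg, 3 in the liver trend and 0 in the kidney trend. Only the fit over both organs used dose and replicate number together as its block. Samples with the same number within an organ did not deviate together (median correlation 0 in liver and 0.02 in kidney), and 26 of 29 liver arrays correlated best with the kidney array of their own dose and number (lowest -0.03, median 0.16), a hint from the data, not the design. For other numbers of the same dose the median was -0.04. The main fits took all arrays as independent. Where liver and kidney came from the same rats, their results are not separate observations.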
